A study of Homo sapiens with 9 samples.

Results

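TC/CP is a cell line selected from the Ewing sarcoma line TC-71 by 6 months in figitumumab, and its RNA levels were set against those of the parental line. Figitumumab is a human antibody against the IGF-1 receptor. The comparison used every array of both lines, 2 of TC/CP and 3 of TC-71, out of 9 arrays in all, and covered 14181 genes with a single symbol per probe set. TC/CP was exposed to increasing concentrations, the highest of which is not given in the sources used here. TC-71 was not selected and is labelled as not resistant to drugs against the IGF-1 receptor. The other 4 arrays were of TC/AEW, selected with the kinase inhibitor NVP-AEW541 (5 µM at most), and TC/AVE, selected with AVE1642, another antibody against the receptor (10 µg/ml at most), over the same 6 months. All lines were kept in Iscove medium with 10% fetal bovine serum, and whether drug was present at harvest is not given in the sources used here.

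Ewing sarcoma is a tumour of bone and soft tissue driven by a fusion of EWSR1 with an ETS factor, most often FLI1. Its cells depend on the IGF-1 receptor, which binds IGF1 and IGF2 and signals through the IRS adaptors to PI3K and AKT and, through RAS, to the kinase ERK. Antibodies such as figitumumab block ligand binding and send the receptor to degradation, and lines that grow in their presence are used to study resistance.

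The 2 TC/CP arrays are technical replicates per the labels and were averaged into 1 sample. The 3 TC-71 samples were labelled as biological replicates. Values are log2 levels, so a difference of 1 is 2-fold, and the values of TC-71 are listed in the order samples 1, 2 and 3. Errors of differences are moderated standard errors, whose spread came only from TC-71, with TC/CP assumed to vary alike. The labels name no TC-71 culture kept alongside the selection, so resistance and time in culture cannot be told apart. By the raw-file names in the labels, TC-71 sample 3 came from the same year as TC/CP, and the other TC-71 samples from other years. The difference from sample 3 alone, 1 sample against 1 with no test, is therefore given beside the difference from the mean.

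The TC/CP arrays correlated with each other at 0.997 over the 14181 genes, and the TC-71 samples at 0.962 to 0.983. Genes are not independent replicates. TC/CP correlated at 0.957, 0.973 and 0.983 with TC-71 samples 1, 2 and 3. Array medians lay between 5.39 and 5.45. All 9 of the 9 measured Ewing sarcoma markers, among them CD99, NKX2-2 and PRKCB, stood above 5 in both lines. Of 11 measured blood and immune markers, 4 reached 5 in TC/CP and 5 did in TC-71, and the defining marker PTPRC was near background in both. A mean level under 5 is taken as near background, and a gene's difference is then at least the value given. Some background lies higher, as the blood gene HBB read 5.81 and 5.89 on the TC/CP arrays, against 6.02, 5.74 and 5.98. In these bulk samples, fewer cells with a transcript and less of it per cell cannot be told apart.

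No gene passed an adjusted p of 0.05 in limma between TC/CP and TC-71 (0% of 14181 genes), and the lowest adjusted p was 0.224. At an unadjusted p under 0.05, limma gave 493 genes higher in TC/CP (3.48%) and 212 lower (1.49%), 705 in all and 437 without TC-71 sample 3. If no gene differed, a share of about 0.05 of the 14181 genes would still reach this cut, and 705 is near that share. Other limma settings called 119 genes (all 9 arrays, with the sample as a random block), 4 (arrays centred on their medians: IFIT2, NT5E, SPRY4 and DSCR8) and 1 (a trend of the prior with level: NT5E). By size, 345 genes were at least 2-fold higher in TC/CP (2.43%) and 112 at least 2-fold lower (0.79%). These counts ran from 238 to 447 and from 107 to 138 when 1 array was left out. Both TC/CP arrays lay above all 3 TC-71 samples for 2986 genes (21.1%) and below them for 2405 (17%). They lay above for 344 of the 345 genes at least 2-fold higher, and below for 108 of the 112 at least 2-fold lower. For a gene that differed 2-fold, a lack of overlap between the lines is therefore no further result. Set against TC-71 sample 3 alone, 234 genes were at least 2-fold higher (1.65%) and 106 at least 2-fold lower (0.747%). Of the 345 genes, 208 were also 2-fold higher than sample 3, and of the 112 genes, 81 were also 2-fold lower. All genes below are therefore given as values, none of which passed the test over all genes.

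The largest difference was in IFIT2, an interferon-induced protein that binds RNA and restrains viral translation. IFIT2 read 9.84 and 9.83 on the TC/CP arrays, against 5.52, 6.12 and 5.33 in TC-71, a difference of 4.18 ± 0.36 from the mean and 4.51 from sample 3 (adjusted p = 0.224 by limma). Both TC/CP arrays lay far above every TC-71 sample. IFIT3, its partner in the same protein family, read 9.08 and 9.05, against 5.18, 6.49 and 5.81 (3.24 ± 0.52, and 3.26 from sample 3). IFIT1, which binds viral RNA with unmethylated caps, read 9.20 and 9.41, against 5.99, 7.32 and 6.30 (2.76 ± 0.55, and 3.00 from sample 3). In all 3 genes the groups did not overlap, as the rule for the largest differences required. The second probe sets of IFIT2 and IFIT3 gave smaller differences, 2.47 in place of 4.18 and 1.61 in place of 3.24.

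The promoters of IFIT3, IFIT1 and HERC5, another interferon-induced gene, are shown because these are the largest interferon differences with a promoter in the RefSeq table. Each line holds the 200 bases before the gene's start (build GRCh38.p14, plus strand, chr10:89327797-89327996, chr10:89392423-89392622 and chr4:88456919-88457118, in that order). Capitals mark matches to the interferon-response motif, 2 copies of GAAA with any 2 bases between them. All matches shown lie on the opposite strand and so read as 2 copies of TTTC.
IFIT3: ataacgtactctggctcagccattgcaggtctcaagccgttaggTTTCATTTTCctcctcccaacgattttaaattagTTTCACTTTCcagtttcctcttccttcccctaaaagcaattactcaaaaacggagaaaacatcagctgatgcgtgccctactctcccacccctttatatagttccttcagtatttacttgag
IFIT1: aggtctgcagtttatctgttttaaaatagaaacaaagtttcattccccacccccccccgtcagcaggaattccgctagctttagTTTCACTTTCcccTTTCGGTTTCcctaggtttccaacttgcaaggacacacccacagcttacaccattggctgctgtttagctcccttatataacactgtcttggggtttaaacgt
HERC5: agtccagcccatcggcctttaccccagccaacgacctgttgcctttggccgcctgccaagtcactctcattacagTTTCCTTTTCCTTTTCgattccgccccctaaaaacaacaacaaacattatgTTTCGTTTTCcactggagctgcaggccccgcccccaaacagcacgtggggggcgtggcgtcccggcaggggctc
IFIT3 and IFIT1 hold 2 matches each and HERC5 holds 3, of which the first 2 overlap. The matches begin 156 and 122 bases before the start of IFIT3, 116 and 103 before that of IFIT1, and 125, 119 and 74 before that of HERC5. On either strand of the RefSeq windows, which run from 250 bases before to 50 after the start, 13 of the 19 measured interferon genes with a promoter in the table hold the motif. So do all 7 of the members at least 2-fold higher in TC/CP and 6 of the other 12. The share was 2.61% of the 11312 promoters of genes tested and 3.57% of all 35116 promoters. The list was chosen as interferon-response genes, so this contrast gives no test. A match is a description of these letters and not of binding.

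Other interferon-response genes were higher in TC/CP too, though not the whole group. Of 26 measured members of a list of 42, 21 were higher and 5 lower, and 8 were at least 2-fold higher with 0 at least 2-fold lower. The median was 0.38, against -0.002 over all genes, and it was 0.59, 0.30 and 0.28 when set against TC-71 samples 1, 2 and 3 singly. Both TC/CP arrays lay above all TC-71 samples for 13 of the 26 members and below them for 0, beside 21.1% and 17% of all genes. HERC5, the ligase that attaches the ubiquitin-like ISG15 to proteins, read 7.68 and 7.68, against 5.13, 5.90 and 5.67 (2.11 ± 0.35). ISG15 itself read 10.80 and 10.77, against 9.53, 9.91 and 9.28 (1.21 ± 0.31). Both are thus on the same side, with no overlap between the lines. IFI44 differed by 1.15 ± 0.37 and IFITM3, which blocks virus entry, by 1.02 ± 0.25. IFIH1, a sensor of double-stranded RNA that was near background in TC-71, differed by at least 1.04 ± 0.38. Its mean of 5.14 in TC/CP was itself little above 5.

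Members of the interferon list that carry the same kind of signal stood close to TC-71. IFI6 read 6.28 and 6.29 on the TC/CP arrays, against 6.09, 6.75 and 6.01. IFITM1 read 9.30 and 9.15, against 9.09, 9.57 and 9.43, and IRF9, the DNA-binding subunit of the interferon-activated complex ISGF3, differed by -0.13 ± 0.35. In all 3 genes the groups overlapped. HLA class I genes, which interferon also induces, had a median of 0.003 over 16 members with 0 at least 2-fold higher. HLA-B read 8.65 and 8.95, against 8.43, 9.10 and 8.73, and the peptide transporter TAP1 differed by 0.15 ± 0.24. PSME1, an interferon-inducible proteasome activator, was lower at 8.75 and 8.80, against 9.32, 9.52 and 9.40. CALR, a chaperone of class I assembly, was the member of that list at least 2-fold lower (-1.04 ± 0.51), and its 2 other probe sets gave -0.37 and -0.08.

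Genes that ERK signalling induces, several of which feed back on the pathway, also held many of the larger differences. Of 29 measured members of a list of 32, 23 were higher and 6 lower in TC/CP, with 10 at least 2-fold higher and 0 at least 2-fold lower. The median was 0.42, and 0.32, 0.72 and 0.39 against TC-71 samples 1, 2 and 3 singly. Both TC/CP arrays lay above all TC-71 samples for 16 of the 29 members and below them for 1 (HMGA2), beside 21.1% and 17% of all genes.

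Among the feedback inhibitors, SPRY4, a Sprouty protein that restrains receptor signalling to RAS, read 8.40 and 8.43, against 5.29, 5.32 and 5.68. The difference was 2.99 ± 0.26, and 2.74 from sample 3 (adjusted p = 0.224 by limma). DUSP6, the phosphatase that inactivates ERK, read 10.68 and 10.64, against 8.07, 9.15 and 8.21 (2.18 ± 0.47). TC/CP stood above every TC-71 sample in both genes, and the 3 DUSP6 probe sets gave 1.99 to 2.42. SPRED1 and SPRED2, which bring neurofibromin to RAS, differed by 1.42 ± 0.58 and 1.01 ± 0.33, and the further ERK phosphatase DUSP4 by 0.82. Other probe sets gave 0.86 and 0.51 for SPRED1 and -0.14 for SPRED2.

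Among the transcription factors of the list, FOSL1, an AP-1 subunit, read 8.04 and 7.88, against 5.56, 5.44 and 5.71 (2.39 ± 0.22, and 2.25 from sample 3). ETV1, an ETS factor, read 9.11 and 9.04, against 6.06, 7.92 and 7.45 (1.94 ± 0.73), and the 4 other ETV1 probe sets gave 0.46 to 1.26. FOSL1 varied little between the TC-71 samples, whereas ETV1 spread over almost 2 units between them. EGR1 and ETV5 differed by 1.18 ± 0.72 and 1.16 ± 0.73, and their other probe sets gave 1.26 to 1.55 and 0.64 to 1.51. The immediate early genes FOS, JUN and DUSP1 differed by 0.12, -0.18 and -0.02, with other JUN probe sets at 0.069 to 0.49 and other DUSP1 probe sets at -0.42 and -0.29. MYC read 12.61 and 12.63, against 12.37, 12.46 and 12.21.

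**Figure D1:**
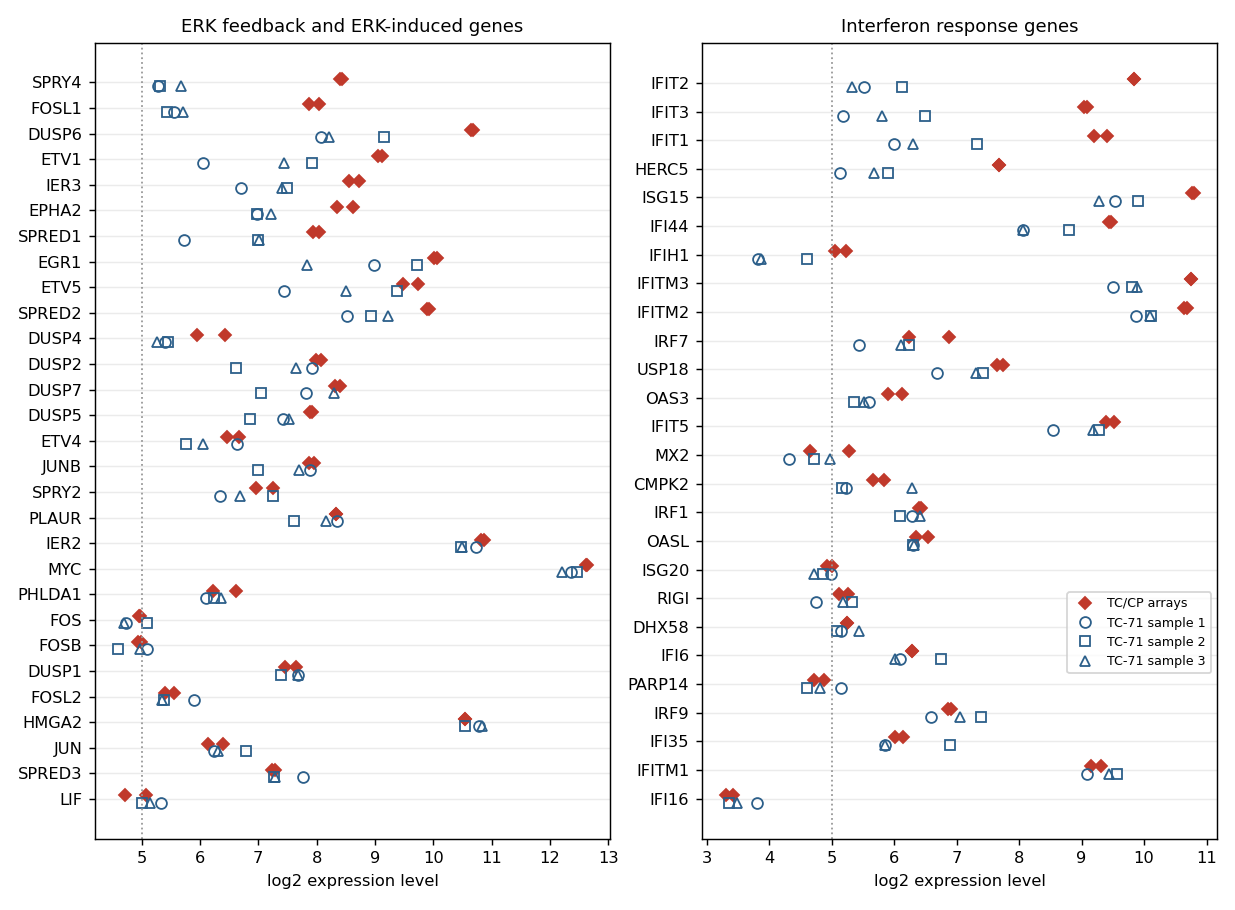
Log2 level of the 29 ERK-induced and 26 interferon-response genes measured, ordered by difference. Red diamonds are the 2 TC/CP arrays, open blue symbols the 3 TC-71 samples, and the dotted line is the filter level of 5. TC/CP stands clear of TC-71 at the top of both lists (SPRY4, FOSL1 and DUSP6, and IFIT2, IFIT3, IFIT1 and HERC5). At the bottom, the genes lower in TC/CP overlap TC-71, except HMGA2, where both TC/CP arrays lie below all TC-71 samples. The order was set by these same values, so the separation at the top is no result.

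The target of figitumumab showed a small difference that varied by probe set. IGF1R read 9.07 and 8.90 on the TC/CP arrays, against 9.25, 9.40 and 9.26 in TC-71, a difference of -0.32 ± 0.21. Both arrays lay below all TC-71 samples by less than 2-fold. Of the 4 other IGF1R probe sets, 2 at a similar level gave 0.16 and 0.03 and the dimmer ones -0.66 and -0.03. IGF1, a ligand of the receptor, read 5.97 and 5.72, against 6.32, 6.70 and 6.61 (-0.70 ± 0.25). Its 3 other probe sets gave -0.87, -1.43 and -1.44, the last 2 with TC/CP near background, so that whether IGF1 differed 2-fold depended on the probe set. INSR, the insulin receptor that can pair with IGF1R, differed by -0.17 ± 0.34, and IGF2R, which clears IGF2, by 0.18 ± 0.32 (-0.29 in another probe set). Of 5 measured receptors and ligands, 0 differed 2-fold by the probe set used for each.

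Among the adaptors, IRS2 had the largest difference, with 11.17 and 11.16 on the TC/CP arrays, against 12.08, 11.92 and 12.05. The difference was -0.85 ± 0.21, and -0.88 from sample 3, with TC/CP below all TC-71 samples. IRS1, which carries the same signal, differed by -0.02 ± 0.50. GRB10, an adaptor that restrains the receptor, differed by -0.71 ± 0.32, and GRB2, which links receptors to RAS, by 0.54 ± 0.27. Other probe sets gave -0.41 to -0.12 for GRB10, and 0.30 and 0.072 for GRB2. Over the 18 adaptors measured, 6 were higher and 12 lower, with 0 differing 2-fold.

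The list of IGF-binding proteins and their proteases was near TC-71, with 4 of 13 members higher, 9 lower and 0 differing 2-fold. IGFBP3 and IGFBP5 differed by -0.06 ± 0.29 and -0.33 ± 0.31, and IGFBP6, which prefers IGF2, by 0.88 ± 0.29. In the PI3K, AKT and mTOR pathway, 17 of 25 members were higher, with a median of 0.29 that was 0.04 against TC-71 sample 3. The lipid phosphatase INPP4B read 6.93 and 6.92, against 5.19, 6.90 and 5.36 (1.11 ± 0.72), so that TC-71 sample 2 stood beside TC/CP. EIF4EBP2, which holds back translation, differed by -0.76 ± 0.27 (-1.11, -0.92 and -0.15 in other probe sets). The RAS to ERK cascade itself had 0 of 13 measured members differing 2-fold, with MAP2K1, which phosphorylates ERK, at 10.21 and 10.26, against 9.61, 9.47 and 9.72.

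Several other receptor tyrosine kinases stood apart from TC-71 in both directions. RET, the receptor for GDNF ligands, read 7.45 and 7.11, against 5.36, 5.10 and 5.45 (1.98 ± 0.24, and 1.83 from sample 3). The 2 other RET probe sets gave 0.72 and 0.63. EPHA2, an ephrin receptor that ERK induces, read 8.36 and 8.62, against 6.98, 6.97 and 7.22 (1.43 ± 0.23). TC/CP was above every TC-71 sample in both, and FGFR4 differed by 1.23 ± 0.37, with other probe sets at 0.06 and 0.59. ALK read 5.05 and 5.34, against 6.23, 6.20 and 6.51 (-1.12 ± 0.24, and -0.59 in another probe set), and PDGFRB differed by -1.05 ± 0.25. Over the 34 measured, 3 were at least 2-fold higher and 2 at least 2-fold lower, and the median was -0.02.

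Among 34 ligands of these receptors, KITLG, the ligand of KIT, read 6.86 and 6.85, against 5.13, 5.78 and 5.63 (1.34 ± 0.32). FGF2 differed by 1.10 ± 0.61. PGF, a ligand of the VEGF receptor FLT1, read 7.25 and 7.10, against 9.45, 7.95 and 8.30 (-1.39 ± 0.61), but another PGF probe set gave 0.12. These were the 3 ligands that differed 2-fold.

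RGS4, which speeds the shut-off of G-protein signals, had the largest difference after IFIT2 among genes higher in TC/CP. It read 11.06 and 11.02 on the TC/CP arrays, against 6.80, 8.18 and 7.23 in TC-71 (3.63 ± 0.55, 12.4-fold, and 3.81 from sample 3). Its 2 other probe sets gave 2.97 and 3.31. GNG12, a G-protein gamma subunit, read 9.90 and 9.77, against 6.44, 7.20 and 7.18 (2.89 ± 0.38), with other probe sets at 0.98 and 1.60. For both genes TC/CP lay above all TC-71 samples, as the rule for the largest differences required.

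NT5E, the surface enzyme CD73 that makes adenosine from AMP, had the largest moderated statistic. It read 6.79 and 6.31, against 3.45, 3.45 and 3.46, so that TC-71 was near background and the difference of 3.10 ± 0.20 is a lower bound. Its 2 other probe sets gave 2.00 and 1.74. FERMT3, a kindlin that activates integrins and is best known from blood cells, read 9.34 and 9.11, against 6.73, 6.49 and 6.64 (2.60 ± 0.22). MLKL, the effector of necroptosis, read 7.72 and 7.67, against 4.36, 4.26 and 5.68, at least 2.93 ± 0.61 higher and 2.02 above sample 3. Beside FERMT3, the 11 measured blood and immune markers averaged 4.66 and 4.71 on the TC/CP arrays, against 4.98, 4.66 and 4.82.

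**Figure D2:**
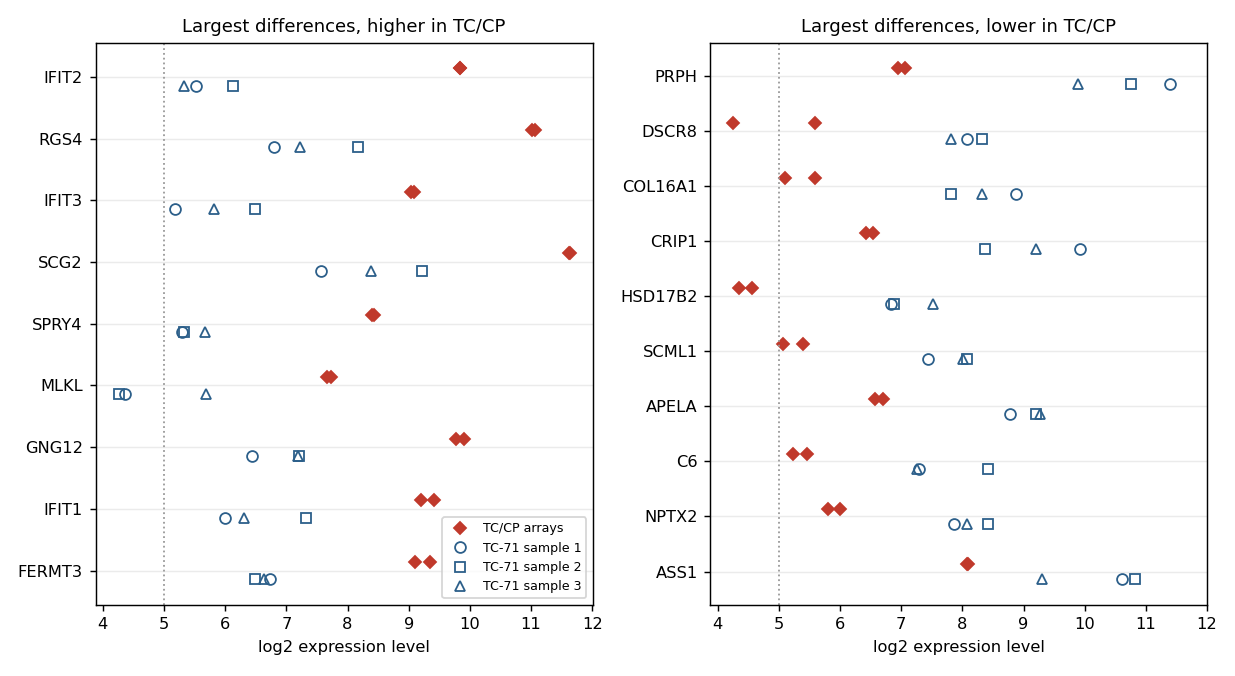
Log2 level of genes with the largest differences under the rule for named genes, 9 higher and 10 lower in TC/CP. Red diamonds are the 2 TC/CP arrays and open blue symbols the 3 TC-71 samples, and the dotted line marks the filter level of 5. The rule required that the red symbols lie wholly to one side of the blue ones, so their separation is no result.

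At the other end was PRPH, the intermediate filament peripherin of peripheral neurons. It read 6.94 and 7.07 on the TC/CP arrays, against 11.40, 10.75 and 9.90 in TC-71 (-3.68 ± 0.59, 12.8-fold lower, and -2.89 from sample 3). COL16A1, a fibril-associated collagen, read 5.58 and 5.11, against 8.88, 7.81 and 8.32 (-2.99 ± 0.44). HSD17B2, which inactivates estradiol and testosterone, read 4.35 and 4.55, against 6.84, 6.88 and 7.52, a difference of -2.63 ± 0.34 or further from 0. These genes were also low in TC/AEW and TC/AVE, where PRPH stood at 7.12 and 6.61, COL16A1 at 5.42 and 5.26 and HSD17B2 at 4.03 and 4.41.

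DSCR8, a gene of the Down syndrome region of chromosome 21, read 4.25 and 5.60 on the TC/CP arrays, against 8.08, 8.33 and 7.82. It was the only 1 of the 14181 genes whose TC/CP arrays lay more than 1 apart, and its difference was -3.15 ± 0.27 or further from 0. APELA, a secreted ligand of the apelin receptor, read 6.57 and 6.70, against 8.78, 9.20 and 9.27 (-2.45 ± 0.28). MFAP4, a protein of elastic fibres, read 8.73 and 8.65, against 10.71, 10.85 and 10.67 (-2.06 ± 0.21). In contrast to PRPH, none of these 3 genes was at least 2-fold lower than TC-71 in the other selected lines. DSCR8 stood at 9.01 and 8.22, APELA at 9.26 and 8.66 and MFAP4 at 10.68 and 10.57 in TC/AEW and TC/AVE. In TC/AEW, DSCR8 was 0.94 above the TC-71 mean, with both arrays above all TC-71 samples.

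Further large differences were in CRIP1, a LIM-domain protein (-2.68 ± 0.60), SCML1, a Polycomb-related protein (-2.61 ± 0.32), C6, a complement component (-2.31 ± 0.52), NPTX2, a synaptic pentraxin (-2.22 ± 0.29), and SUSD5 (-2.28 ± 0.23, or further from 0). A second SCML1 probe set gave -1.30. ASS1, which makes the arginine precursor argininosuccinate, read 8.08 and 8.09, against 10.62, 10.83 and 9.30. Sample 3 was the nearest to TC/CP here, and the difference was -2.16 ± 0.64 from the mean and -1.21 from sample 3.

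Genes tied to the fusion oncogene differed modestly. FLI1, the ETS partner, read 9.83 and 9.66, against 8.81, 8.81 and 9.49 (0.71 ± 0.35, and 0.25 from sample 3). Its 2 other probe sets gave 0.0183 and -0.26, so 1 of 3 showed the higher value. Of 26 measured genes that EWS-FLI1 induces, 18 were lower and 8 higher, with 0 at least 2-fold higher and 2 at least 2-fold lower, and a median of -0.20. Both TC/CP arrays lay below all TC-71 samples for 12 of the 26 and above them for 6, beside 17% and 21.1% of all genes. FCGRT, which recycles antibodies of the IgG class, read 9.62 and 9.58, against 11.76, 11.17 and 10.99 (-1.71 ± 0.36). LIPI, a lipase of the testis, read 5.27 and 5.39, against 7.09, 6.48 and 7.45 (-1.68 ± 0.41). CCND1, the cyclin of G1 that is part of the same list, was higher, at 12.20 and 12.35, against 11.76, 10.99 and 11.88 (0.73, and 0.36 in another probe set).

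Of 17 measured genes that EWS-FLI1 represses, 9 were higher and 8 lower, with 3 at least 2-fold higher. TNC, the matrix protein tenascin C, read 8.20 and 8.11, against 5.03, 6.0 and 6.11 (2.44 ± 0.48). COL1A1 read 9.11 and 8.98, against 7.56, 7.27 and 7.80 (1.50 ± 0.28), while its 3 other probe sets gave 1.11, -0.23 and -0.06. TGFBR2, a TGF-beta receptor, read 8.27 and 8.24, against 6.32, 7.44 and 7.01 (1.33 ± 0.46), while another probe set near background gave -0.06. ZEB2 differed by 0.99 ± 0.73, with the opposite sign when its probe sets were averaged (-0.15).

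Neural genes went both ways. Of 28 measured, 6 were at least 2-fold higher and 2 at least 2-fold lower, and the median was 0.02. SCG2, the precursor of secretoneurin in dense-core vesicles, read 11.62 and 11.64, against 7.57, 9.22 and 8.38 (3.24 ± 0.63). NRCAM, a cell adhesion molecule of axons, read 8.36 and 8.32, against 6.01, 6.60 and 5.66 (2.25 ± 0.40), with another probe set at 0.39. NEFM, the medium neurofilament, read 9.95 and 9.90, against 7.68, 8.34 and 8.65 (1.70 ± 0.41). Other intermediate filaments, NES, NEFL and SYNM, differed by 1.54, 1.28 and 1.21 (a dim second NES probe set gave -0.30), so that these filament genes stood on the side opposite to PRPH. STMN4, a stathmin that destabilises microtubules, read 9.67 and 9.64, against 10.93, 10.73 and 10.74 (-1.14 ± 0.22).

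Matrix and adhesion genes were likewise divided. Among 21 collagens, 5 were at least 2-fold higher and 1, COL16A1, at least 2-fold lower. The basement-membrane chains COL4A1 and COL4A2 differed by 1.46 ± 0.25, from a TC-71 level near background, and 1.35 ± 0.24, and a second COL4A1 probe set gave 0.33. COL13A1, a transmembrane collagen, differed by 1.53 ± 0.24, with other probe sets at 0.16 and 0.36, and COL5A1 by -0.93 ± 0.38. MMP1, a collagenase, read 6.92 and 6.86, against 4.64, 5.36 and 5.97 (1.56 ± 0.53), nearer to sample 3 than to the others. Among 38 mesenchymal and matrix genes, 3 were at least 2-fold higher, the third being S100A6, and the median was -0.02.

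Of 29 integrins and tetraspanins, 4 were at least 2-fold higher and 0 at least 2-fold lower. ITGA4, which pairs with ITGB1 to bind fibronectin and VCAM1, read 8.30 and 8.24, against 6.41, 7.24 and 7.07 (1.36 ± 0.38). ITGB5, a vitronectin receptor subunit, differed by 1.39 ± 0.39 and ITGA2, a collagen receptor subunit, by 1.50 ± 0.50. ITGB5 had further probe sets at 0.24 and 0.88, and ITGA2 had one at 0.31. TSPAN8 differed by at least 1.22 ± 0.26, with a TC/CP mean of 5.07 that was itself little above 5. All 4 stood above every TC-71 sample, as did 344 of the 345 genes at least 2-fold higher.

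Of 18 cadherins and protocadherins, 14 were lower and 4 higher, with a median of -0.28, and -0.34, -0.30 and -0.32 against TC-71 samples 1, 2 and 3 singly. CDH12, a neuronal cadherin, read 7.08 and 7.15, against 8.76, 8.47 and 9.15 (-1.67 ± 0.32). CDH10 read 6.46 and 6.61, against 7.25, 8.36 and 7.42 (-1.14 ± 0.48), whereas PCDH7 was higher, at 9.07 and 9.09, against 8.05, 8.36 and 7.90. Of the 4 PCDH7 probe sets, 2 gave 0.98 and the others 0.11 and -0.24. Among 38 axon guidance genes, 2 were at least 2-fold higher and 2 at least 2-fold lower. SEMA3F, a repulsive semaphorin, read 9.44 and 9.43, against 7.96, 7.85 and 8.03 (1.49 ± 0.21, and 0.68 and 1.72 in other probe sets). SEMA3C differed by -1.52 ± 0.28 (-0.95 in another probe set) and the semaphorin receptor NRP1 by -1.02 ± 0.26.

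In metabolism, PNPLA3, a lipase of lipid droplets, read 8.97 and 8.74, against 6.41, 7.02 and 7.03 (2.04 ± 0.33). It was also high in TC/AEW and TC/AVE, at 8.52 and 8.37. ACSL4, which activates polyunsaturated fatty acids, read 7.77 and 7.07, against 5.35, 6.42 and 6.05 (1.48 ± 0.45), with other probe sets at 0.63 and 0.58. Of 24 genes of cholesterol synthesis and uptake, 16 were higher and 8 lower, 0 differed 2-fold and the median was 0.21. HMGCS1, an early enzyme of the pathway, read 10.81 and 10.78, against 9.77, 9.78 and 10.14 (0.90 ± 0.25), and INSIG1, the sterol sensor partner that SREBP induces, differed by 0.93 ± 0.31. Other probe sets gave 0.47 for HMGCS1 and 0.31 and 0.59 for INSIG1. Both were at least as high in TC/AEW and TC/AVE, where HMGCS1 stood at 10.92 and 11.41.

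Of 31 genes of the hypoxia response and glycolysis, 22 were higher, 9 lower and 1 at least 2-fold higher, with a median of 0.15. SLC2A3, a glucose transporter, differed by 1.08 ± 0.56 (0.53 and 0.60 in other probe sets), and ENO2, the neuronal enolase, read 9.05 and 8.93, against 8.12, 7.92 and 8.10. GCLM, the regulatory subunit of the enzyme that starts glutathione synthesis, read 11.20 and 11.11, against 9.38, 9.17 and 9.42 (1.83 ± 0.23, and 2.60 and 2.47 in other probe sets). It was the 1 gene of 38 for glutathione and oxidative stress that was at least 2-fold higher, and the catalytic subunit GCLC differed by 0.48. Of 38 subunits of the respiratory chain, 26 were lower and 12 higher, with 0 differing 2-fold.

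Within developmental pathways, TGFBR3, a TGF-beta co-receptor, read 8.34 and 8.37, against 6.41, 6.97 and 6.91 (1.59 ± 0.30). SMAD9, a mediator of BMP signals, read 8.62 and 8.53, against 10.01, 10.06 and 10.07 (-1.47 ± 0.20, and -0.94 in another probe set). DACT2, a regulator of WNT signalling, read 5.95 and 5.81, against 7.50, 7.44 and 7.60 (-1.63 ± 0.21). These genes varied by less than 0.6 within TC-71 and did not overlap between the lines, and DACT2 was as low in TC/AEW and TC/AVE (6.02 and 5.75). LEF1, a WNT-dependent transcription factor, differed by 1.13 ± 0.36, with other probe sets at 0.14 and -0.22. AXIN2, a WNT target, differed by 1.01 ± 0.48, with 3 other probe sets between -0.40 and -0.13. SOX11, a neural transcription factor, differed by -1.02 ± 0.45.

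Cell-cycle and survival genes were mostly close. Of 39 genes of DNA replication and mitosis, 16 were higher, 23 lower and 0 differed 2-fold, CENPE having the largest difference (-0.83 ± 0.25). Among 16 BCL2 family members, the pro-apoptotic BOK read 7.32 and 7.14, against 9.65, 8.29 and 8.60 (-1.62 ± 0.56), and BMF, another pro-apoptotic member, 6.59 and 6.66, against 7.60, 7.16 and 7.60. Of 21 ABC transporters, ABCD3, which carries fatty acids into peroxisomes, was the 1 at least 2-fold higher, at 11.45 on both TC/CP arrays, against 10.14, 10.39 and 10.45 (1.13, and 0.64 in another probe set). No member of the Notch and Hedgehog list (31 genes), the HOX list (25) or the list of histone and DNA methylation regulators (37) differed 2-fold.

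Some of the genes above lie side by side on chromosome 1. Genes were ordered by RefSeq position, which placed 14132 of them on chromosomes 1 to 22 and X, and the median difference was taken over each run of 25 neighbouring measured genes. This ordering was chosen after the values had been seen, and gives no test. Runs with a median of at least 0.8 were found on chromosome 1 alone, and the highest median of any run on the other chromosomes was 0.50. Together these runs formed a stretch of 70 genes from GTF2B to PSRC1, of which 68 were higher in TC/CP and 33 at least 2-fold higher (47.1%, against 2.16% of all other placed genes). Both TC/CP arrays lay above all TC-71 samples for 54 of the 70 (77.1%) and below them for 0, beside 20.7% and 17.1% of all other placed genes. The median difference of the stretch was 0.89, and 1.09, 0.79 and 0.92 against TC-71 samples 1, 2 and 3 singly. The cut of 0.8 that bounded the stretch was set on these same differences. Its shares and medians therefore describe the genes picked and give no test.

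In the other selected lines the whole stretch had medians of 0.17 in TC/AEW and 0.06 in TC/AVE. Within it, the run of 25 genes with the highest TC/CP median (1.13, EVI5 to SASS6) had medians of 0.42 in TC/AEW and 0.14 in TC/AVE. GCLM, ABCD3 and TGFBR3 lie within the stretch. SLC30A7, a zinc transporter of the Golgi, read 10.79 and 10.83 on the TC/CP arrays, against 9.02, 9.10 and 9.16 (1.72 ± 0.21). EVI5, a regulator of cell division, read 10.27 and 9.99, against 7.91, 8.31 and 8.64 (1.84 ± 0.34), and F3, the tissue factor that starts blood clotting, read 9.35 and 9.40, against 7.77, 7.36 and 8.08 (1.64 ± 0.33). These 3 genes were chosen after their values were seen, and each was clear of all TC-71 samples. SLC30A7 had further probe sets at 1.82 and 0.62, and EVI5 had one at 0.66. Genes within the stretch that stood at TC-71 levels included GTF2B at its edge, at 10.26 and 10.17, against 10.00, 10.21 and 10.09. Copy number was not measured, and its part in these values was not tested.

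**Figure D3:**
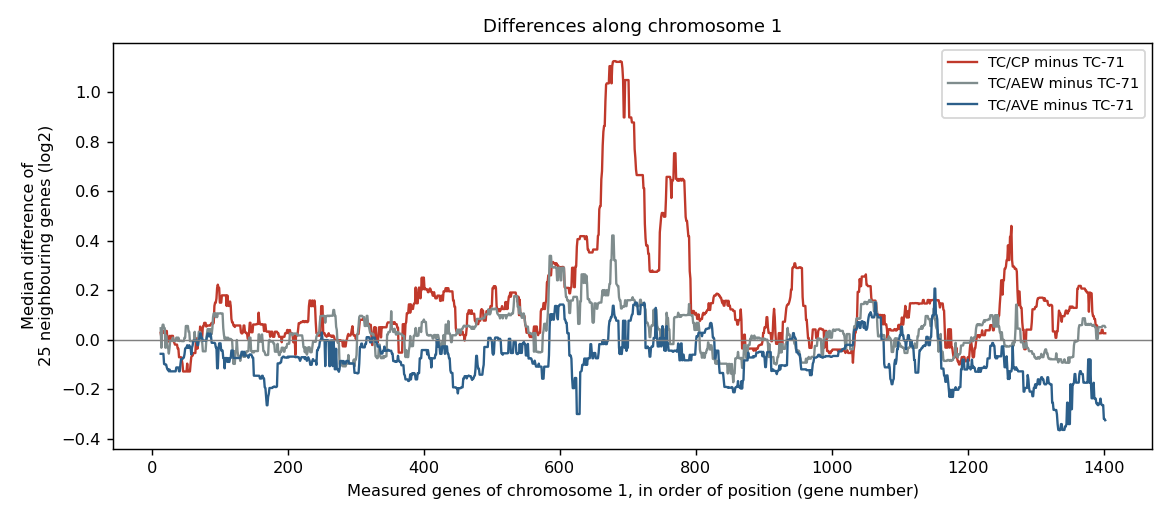
Median log2 difference from the mean of 3 TC-71 samples over runs of 25 neighbouring measured genes along chromosome 1, for TC/CP (red), TC/AEW (grey) and TC/AVE (blue). The horizontal axis counts measured genes in order of position. TC/CP reaches 1.13 within the stretch, in a run where TC/AEW stands at 0.42 and TC/AVE at 0.14. Along the chromosome TC/AEW and TC/AVE stay at or below 0.42 and 0.21.

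Further along the same chromosome, beyond PSRC1, SIKE1, a suppressor of the kinase IKK-epsilon, read 10.80 and 10.72, against 8.15, 8.15 and 8.67 (2.44 ± 0.30), and RAP1A, a RAS-related GTPase, 11.57 on both arrays, against 10.13, 10.34 and 10.56 (1.23 ± 0.26). Other probe sets gave 1.39 to 1.67 for SIKE1 and 0.90 and -0.18 for RAP1A. Both genes were also chosen after their values were seen. Counting every chromosome, chromosome 1 held 71 of 1414 genes at least 2-fold higher (5.02%) and chromosome 3 held 38 of 760 (5%). On chromosome 13, 201 of 255 genes were lower, with a median of -0.25, beside medians of -0.20 in TC/AEW and -0.15 in TC/AVE.

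The choice of TC-71 sample mattered most for stress genes. Of 31 genes of the response to amino acid shortage and unfolded proteins, 22 were lower than the TC-71 mean with a median of -0.25, but the median was 0.12, -0.91 and 0.19 against samples 1, 2 and 3 singly. DDIT3, a transcription factor of endoplasmic reticulum stress, read 8.66 and 8.45 on the TC/CP arrays, against 8.37, 11.42 and 8.46. CHAC1, which degrades glutathione and is induced by ATF4, read 7.65 and 7.57, against 7.83, 10.30 and 6.80. TC-71 sample 2 stood far above the other TC-71 samples and TC/CP in both. TXNIP, which the same sample held at 10.59, and INHBE (8.23) and VLDLR (8.58) behaved alike, and TC/CP was at 7.73 and 7.65 for TXNIP. In TC/AEW and TC/AVE, CHAC1 stood at 10.04 and 9.27, TXNIP at 10.12 and 9.15 and VLDLR at 7.98 and 8.43. In those lines DDIT3 stood at 9.7 and 9.4 and INHBE at 5.5 and 3.7, further below sample 2.

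VLDLR, a lipoprotein receptor, stood 1.52 above sample 3 and 0.19 above the mean, with 6.34 and 6.21 on the TC/CP arrays, against 4.92, 8.58 and 4.75. CCDC18-AS1 (1.57 from sample 3, 0.54 from the mean), CPEB1 (1.42 and 0.99), which controls translation of stored mRNA, and RNA45SN5 (1.34 and 0.88), a ribosomal RNA precursor, were the other genes named for the largest differences from sample 3 among those under 2-fold from the mean. Other probe sets gave -0.27 for CCDC18-AS1 and -0.03 for RNA45SN5 as differences from the mean. In the lower direction the genes named in this way were HCG11 (-1.49 and -0.78), PCDH8 (-1.42 and -0.95), the tight-junction protein TJP1 (-1.33 and -0.97) and AMER2 (-1.29 and -0.90, and -1.61 from the mean in another probe set). TJP1 read 7.02 and 7.23, against 7.65, 8.17 and 8.46, lowest in TC/CP.

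**Figure D4:**
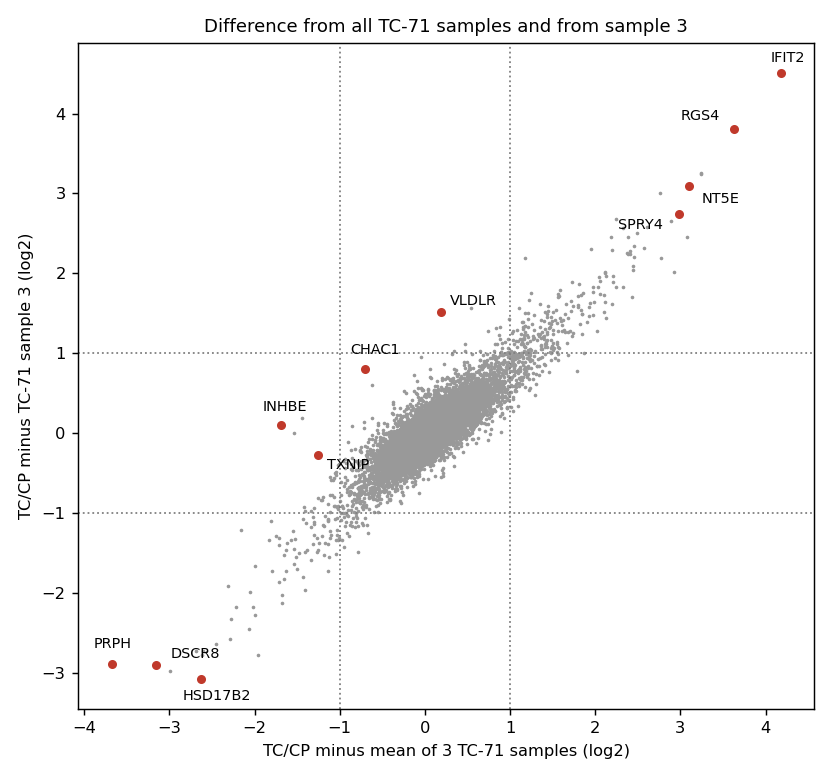
Each point is 1 of 14181 genes, with its TC/CP difference from the mean of the 3 TC-71 samples on the horizontal axis and from TC-71 sample 3 on the vertical axis, both in log2; dotted lines mark 2-fold. The largest differences (IFIT2, RGS4, NT5E, SPRY4, PRPH, DSCR8, HSD17B2) exceed 2-fold on both axes, which follows from the rule for named genes for all of them but NT5E. VLDLR, CHAC1, INHBE and TXNIP lie off the diagonal. Both axes hold the same TC/CP values and share sample 3.

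TC/CP was also set against the mean of TC/AEW and TC/AVE, to ask which differences belonged to the figitumumab line more than to the others. No gene passed in limma (0%), the lowest adjusted p being 0.354, and 694 genes had an unadjusted p under 0.05. That count is near the share of about 0.05 that would reach this cut if no gene differed. A trend of the prior called 1 gene and the fit on all 9 arrays 54. By size, 256 genes were at least 2-fold higher in TC/CP (1.81%) and 135 at least 2-fold lower (0.952%). By the raw-file names the 2 other lines share a year with TC-71 sample 2, so that line and year cannot be told apart here.

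RGS4 stood at 11.04 in TC/CP, against 6.04 in TC/AEW and 7.47 in TC/AVE, 4.28 above their mean. NT5E stood at 6.55, against 3.41 and 3.34, which were near background as in TC-71. SPRY4 at 8.42, against 5.85 and 5.47, and GNG12 at 9.84, against 7.23 and 7.01, kept a similar distance from both lines. RET, at 7.28 in TC/CP, against 5.08 and 5.16, did so too. DSCR8 was 3.69 lower in TC/CP than their mean.

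The interferon genes were mixed. IFIT2 stood at 9.84 in TC/CP, against 8.15 in TC/AEW and 6.18 in TC/AVE, 2.67 above their mean. IFIT3 stood at 9.07, against 7.84 and 6.05, and IFIT1 at 9.30, against 8.66 and 7.31, 2.12 and 1.32 above those means. HERC5 was at 7.68, against 7.91 and 4.06, so that TC/AEW reached TC/CP here. The median of the interferon list was -0.0004 relative to the other lines, since TC/AEW and TC/AVE had medians of 0.49 and 0.20 over TC-71. HLA class I genes had a median of -0.62 relative to the other lines, with HLA-B at 10.24 in TC/AEW and 9.68 in TC/AVE. ERK-induced genes kept a median of 0.36 relative to the other lines. SCG2, MLKL and PNPLA3 were high in all 3 selected lines, with SCG2 at 10.00 and 10.61 and MLKL at 6.64 and 6.94 in TC/AEW and TC/AVE.

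**Figure D5:**
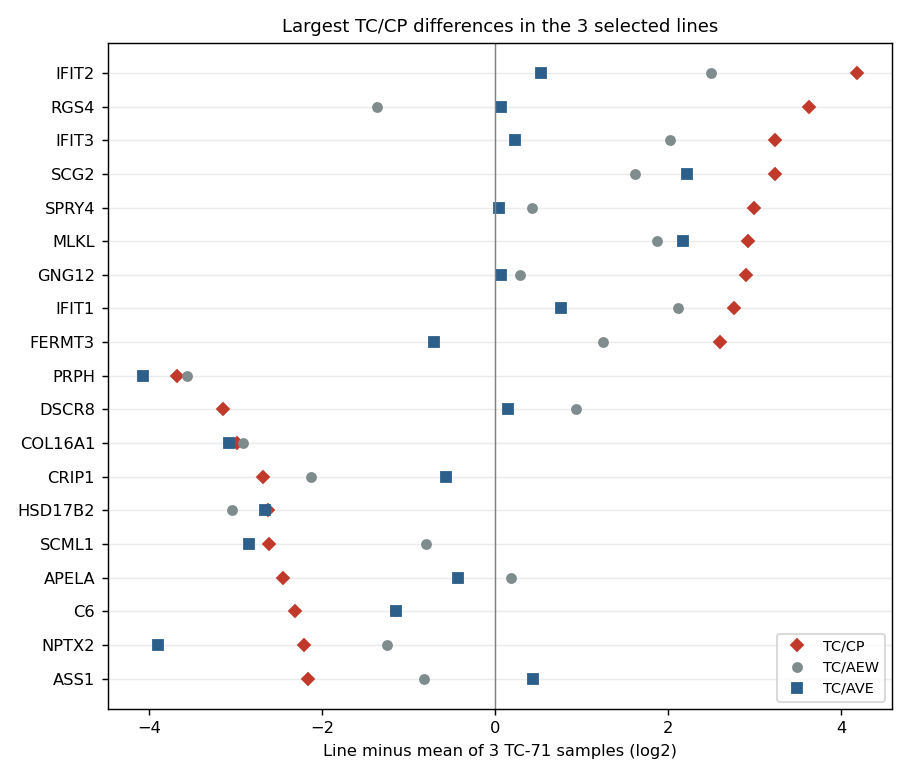
Log2 difference from the mean of 3 TC-71 samples in TC/CP (red diamonds), TC/AEW (grey circles) and TC/AVE (blue squares) for genes with the largest TC/CP differences under the rule for named genes, 9 higher and 10 lower. PRPH, COL16A1 and HSD17B2 are low in all 3 lines, whereas RGS4, SPRY4, GNG12, DSCR8 and APELA lie far from 0 in TC/CP and nearer to it, or on its other side, in the other lines; the 3 lines share the TC-71 samples.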

How the data were processed

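RNA of 9 samples was hybridised to Affymetrix HG-U133 Plus 2 arrays after TRIzol extraction and biotin labelling of 2 µg, per the labels' protocols. The deposited values are log2 levels per probe set, made by the authors with RMA. The affy package is named in the submitters' processing notes without a version. Of 54675 probe sets, 62 were controls, 41091 carried 1 symbol, 1801 several and 11721 none. Single-symbol probe sets reaching 5 on at least 2 arrays were kept (26952), and each gene took the one with the highest mean over the 9 arrays, with _x_at probe sets, prone to cross-hybridisation, used only where no other existed. Symbols were checked against RefSeq (GRCh38.p14), where 41037 were found and 0 updated.

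The 2 arrays of each selected line were averaged into 1 sample. The level at which they were split is not given in the sources used here. A single limma fit (3.58.1, R 4.3.3) held TC/CP, TC/AEW, TC/AVE and the 3 TC-71 samples, with 2 residual and 3.00 prior degrees of freedom, two-sided tests and Benjamini-Hochberg adjustment over 14181 genes. P-values measure only the spread between TC-71 samples, and so few arrays limit the precision of all values. The fit was tested on simulated data.

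Members and gene lists were chosen with earlier results of these data known. Named genes were 9 genes of the IGF axis and FLI1. To these came the 10 largest differences each way with both TC/CP arrays beyond all TC-71 samples, at least 1 in size from sample 3 and a higher group of at least 7. The 4 largest statistics each way, the 4 genes each way set apart from sample 3 with less than 1 from the mean, and up to 4 members per list with the largest differences were added. Genes given as further list members, in summaries of a list, came from these same lists after their values were seen. Of the 10 largest higher differences, 1 is not reported here. Promoters are those of RefSeq. Filters, probe-set choice, scaling, limma settings and left-out arrays were varied.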

Additional observations from a re-analysis of the deposited data

Results flagged for a closer look

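Some named genes lay on one side of all TC-71 samples in both TC/CP arrays and on the other side in both arrays of another selected line. Each is given as TC/CP minus that line on the log2 scale, and none of these differences was tested.

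Against TC/AVE, TC/CP was higher for FERMT3 (3.32), INPP4B (3.03), RASA3 (1.24), EPHA2 (2.47), KITLG (1.73) and HERC5 (3.62). It was also higher for ADM (1.53), a vasodilator peptide, the collagenase MMP1 (3.35), TSPAN8 (1.77), PCDH7 (1.33), NEFM (3.64), ABCD3 (1.38), LEF1 (1.95), HOXB6 (1.21) and ATP5PB (0.58), a subunit of ATP synthase. TC/CP was lower than TC/AVE for IGF1R (-0.59), IGFBP5 (-1.46), PSME1 (-1.22), CDKN3 (-0.86), a phosphatase of cyclin-dependent kinases, and CDH10 (-2.37). IGF1R itself read 9.07 and 8.90 on the TC/CP arrays, against a TC/AVE mean of 9.58.

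Against TC/AEW, TC/CP was higher for RGS4 (5.00) and PCDH7 (1.27). It was lower for IGF1 (-1.12), IGFBP5 (-0.98), DSCR8 (-4.09), AMER2 (-1.53), PSME1 (-0.98), CDKN3 (-0.80) and CDKN1C (-0.80), an inhibitor of cyclin-dependent kinases. RGS4 stood at 11.04 in TC/CP, against 6.04 in TC/AEW.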

How the results depend on the processing

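No paired analysis was possible because the 2 TC/CP arrays are technical replicates of 1 sample. The planned fit of 5 arrays with the sample as a random block could not be fitted, and a fit of all 9 arrays, chosen after seeing the data, took its place. Genes called between TC/CP and TC-71 numbered 0 as reported, 4 with median centring, 1 with a trend and 119 in the fit of 9 arrays. Between TC/CP and the other selected lines they numbered 0 as reported, 1 with a trend and 54 in the fit of 9 arrays. Median centring moved the median of all genes to -0.10 and the split of genes at least 2-fold higher and lower to 277 and 143, against 345 and 112 as reported.

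Over 16 alternatives, the 159 named genes kept their direction in all but 18 of 2500 comparisons, which fell in 10 genes. Averaging probe sets turned BCL2 (-0.0105) and ZEB2 (-0.15), and leaving out _x_at and _s_at probe sets turned CENPF (0.36), HOXB6 (-0.0083) and ZEB2 (-0.11). Against TC-71 sample 3 alone CHAC1 (0.81), DDIT3 (0.0922) and INHBE (0.10) turned. With 1 array left out, CHAC1 ran from -1.46 to 0.29, DDIT3 from -1.38 to 0.14, IGFBP3 from -0.22 to 0.0782, IRS1 from -0.36 to 0.26 and VLDLR from -0.48 to 1.44. Of 560 list medians under these alternatives, 81 moved by more than their spread over TC-71 samples. The median of the chromosome 1 stretch ran from 0.79 to 1.07. The cause of these shifts was not tested. With 3 TC-71 samples and 1 of TC/CP, the spread of TC/CP itself is unknown, and signals near background give lower bounds only.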
